A study of Mus musculus with 6 samples.

Results

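The interferon-induced GTPases are the guanylate-binding proteins (GBP) and the immunity-related GTPases (IRG), and 10 of their genes were followed here: Gbp2, Gbp3, Gbp4, Gbp6, Gbp7, Irgm1, Irgm2, Igtp, Iigp1 and Tgtp1. Their spots were found by the gene named in the description of a spot or by the transcript it was designed on. This gave 22 spots of 13 probes, of 59305 spots and 55681 probes on each array, which name 22220 genes. The 6 arrays held RNA of 2 lines of the mouse endothelial cell line 1G11 (strain C57BL/6NCrLBR), 3 arrays of 1G11-mock cells, which do not overexpress SOD3, and 3 arrays of 1G11-SOD3 cells, which do. SOD3 is the extracellular superoxide dismutase. Before RNA isolation all cultures, the controls included, had spent 6 h in conditioned medium from the murine mammary cancer line N202.1A, so no array shows 1G11 cells without that medium. The labels call the 3 arrays of a line biological replicates but name no independent clones.

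Interferons bind receptors at the cell surface, and kinases of the JAK family then activate transcription factors that enter the nucleus and, with IRF proteins, switch on target genes. The GTPase genes are among the most strongly induced of these targets, above all by interferon-γ, and endothelial cells are known to respond in this way. GBP proteins gather on the vacuoles and membranes of intracellular pathogens and help to open them, while the IRG proteins divide into effectors that attack the vacuole (Iigp1, Tgtp1) and regulators that keep the effectors off the cell's own membranes (Irgm1, Irgm2, Igtp).

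Interferon acts on these genes through short promoter elements, so the stretches that hold them are shown for the members with a promoter entry. RefSeq (build GRCm38.p6) had entries for 7 of the 10 members, and Gbp3 had 2 of the 8 entries. Capitals mark matches to the core of the interferon-stimulated response element (ISRE, searched on both strands as GAAA, any 2 bases and GAAA again, which reads TTTC, 2 bases and TTTC on the other strand) and to the gamma-activated site (GAS, searched as TTCNNNGAA, which reads the same on both strands). Each stretch is written 5′ to 3′ on the strand of its gene and lies before the annotated start.
Gbp2, chr3:142620589-142620628, plus strand: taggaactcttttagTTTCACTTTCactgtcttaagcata
Gbp3, chr3:142559984-142560029, plus strand: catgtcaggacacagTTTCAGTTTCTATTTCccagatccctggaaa
Gbp7, chr3:142530215-142530307, plus strand: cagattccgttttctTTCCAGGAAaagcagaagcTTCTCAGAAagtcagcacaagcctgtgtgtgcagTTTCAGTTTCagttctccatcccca
Irgm1, chr11:48871421-48871465, minus strand: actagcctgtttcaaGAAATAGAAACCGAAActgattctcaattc
Irgm2, chr11:58214887-58214937, plus strand: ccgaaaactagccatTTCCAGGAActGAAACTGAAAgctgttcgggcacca
Igtp, chr11:58199496-58199546, plus strand: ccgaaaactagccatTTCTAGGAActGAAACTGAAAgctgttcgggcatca
Tgtp1, chr11:48992299-48992349, minus strand: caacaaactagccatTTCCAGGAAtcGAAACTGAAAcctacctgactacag

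An ISRE core stood in 7 of the 8 entries, 1 for each of these members, between 77 and 15 bases before the start, and the second Gbp3 entry held none. Of all 32851 mouse promoter entries, which have the same length, 3.44% held one. In Gbp3 and Irgm1 there were 2 cores that overlap. A GAS stood in 4 of the 8 entries (Gbp7, Irgm2, Igtp and Tgtp1) and in 8.3% of all promoters, and no GAS shared a base with an ISRE core. Both elements together occurred in 0.454% of all promoters. A kappaB element was found in 0 of the 8 entries, against 4.51% of all promoters. At that share, 0 of 8 entries does not set the members apart from other genes. The stretches of Igtp and Irgm2 were identical at 49 of 51 bases, and that of Tgtp1 matched Irgm2 at 36 of 51. Gbp4, Gbp6 and Iigp1 had no promoter entry. These matches describe letters in a window and were not tested for binding.

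The arrays had to be read with their layout in mind. Spots in a central rectangle of each array, called the middle here and holding 6435 of the 55961 probe rows tested, read dim on the 1G11-mock arrays: among probes with copies both inside and outside, the copies inside were lower by a median log2 difference of -0.83, -1.27 and -2.62 on the 3 mock arrays, and differed by 0.22, -0.22 and 0.13 on the SOD3 arrays. Probes in the middle are therefore given apart. The cell lines also lay in different rows of 1 slide, so slide row and cell line cannot be told apart. Between 34.2% and 43.8% of spots on an array were well above background by the scanner's flag. The Sod3 probe, itself in the middle, read 13.61, 12.66 and 9.86 on the mock arrays and 16.37, 16.30 and 16.26 on the SOD3 arrays, which fits the labels (log2 fold change 4.27 ± 0.703 (SE), adjusted p = 0.00763). With the position adjustments described further on it was 2.31 (adjusted p = 0.0191) and 2.22 (adjusted p = 0.0229). All levels here are normalized log2 intensities, listed in the order of replicates 1 to 3. A probe was called when the cell lines differed by more than 2-fold with an adjusted p under 0.05 (limma, Benjamini-Hochberg over all 55961 probe rows, in which copies inside and outside the middle form separate rows).

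Of the 11 member probes outside the middle, 5 were called lower in SOD3-overexpressing cells and 0 were called higher. The 5 probes belong to Gbp2, Gbp3, Gbp6 (a probe that also lists Gbp10), Gbp7 and Irgm2. Over all probes outside the middle, 1.2% were called lower and 0.66% higher. All 11 log2 fold changes were below 0, with a median of -1.12 against -0.06 for all probes outside the middle. The share of all probes below 0 was not counted. For 9 of the 11 probes every SOD3 array read below every mock array, which was the case for 11.4% of all probes outside the middle. The 9 include the Tgtp1 probe, which was well above background on no array. The 11 also include an Iigp1 probe well above background on 1 mock array alone, and the Irgm1 probe at -0.03. The calls fell on 4 of 5 GBP probes and on 1 of 6 IRG probes, a contrast that was not tested. The 6 IRG probes include the dim Tgtp1 and Iigp1 probes just named. They leave out the called probe designed on Tgtp2 that also lists Tgtp1, given below. The number called depends on the arrays and on the treatment of position: it was 1 without 1G11-SOD3 replicate 3, 3 without 1G11-mock replicate 2 or without SOD3 replicate 1 or 2, and 4 or 1 with the position adjustments described further on.

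**Figure D1:**
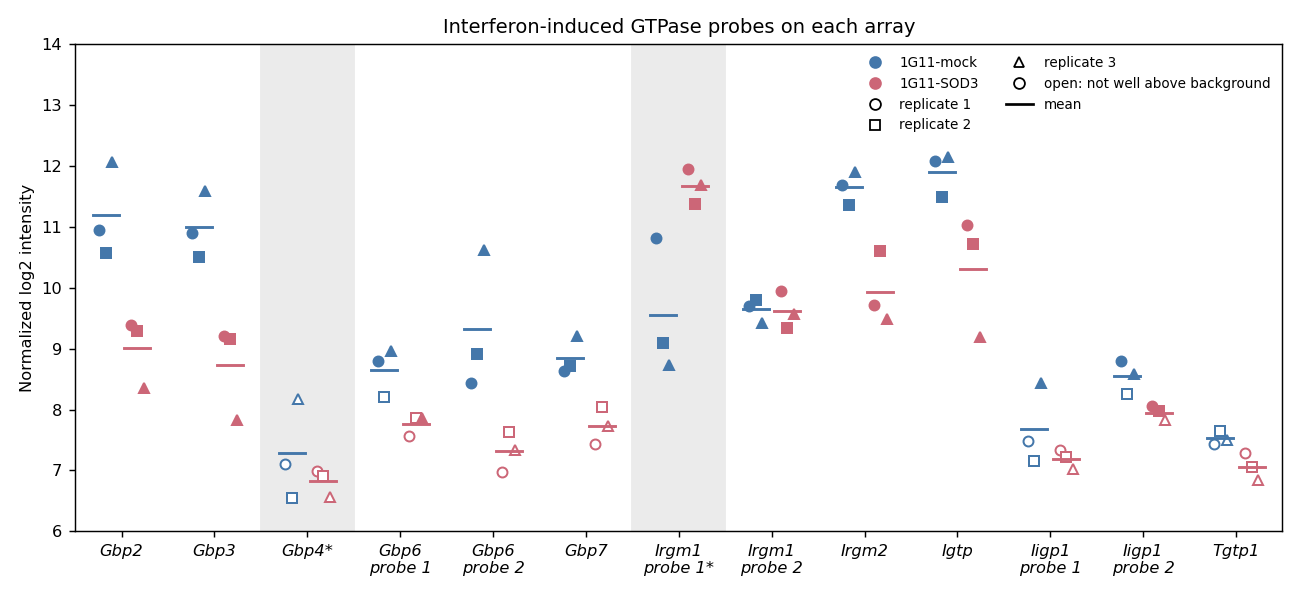
Normalized log2 intensity (vertical axis) of the 13 member probes (horizontal axis) on the 3 1G11-mock (blue) and 3 1G11-SOD3 (red) arrays, with the mean of each cell line as a line. Open symbols were not well above background, and grey bands with an asterisk mark the 2 probes in the middle of the array. Gbp2, Gbp3, Irgm2 and Igtp stand apart between the lines, while probe 2 of Irgm1 overlaps.

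Among the guanylate-binding proteins, Gbp2 and Gbp3, neighbours on chromosome 3 whose products coat pathogen vacuoles, were both called lower. Gbp2 read 10.94, 10.57 and 12.06 on the mock arrays and 9.39, 9.28 and 8.36 on the SOD3 arrays. Every SOD3 array lay below every mock array. The log2 fold change was -2.18 ± 0.389 (SE; 95% interval -3.03 to -1.33; adjusted p = 0.0119, limma), or 4.53-fold lower. Without SOD3 replicate 3, the lowest array, the log2 fold change was -1.84 and the adjusted p 0.0659.

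Gbp3 behaved much like Gbp2. Its levels were 10.90, 10.50 and 11.58 in mock cells and 9.20, 9.16 and 7.84 in SOD3 cells, again with no overlap. The log2 fold change was -2.26 ± 0.388 (adjusted p = 0.00944, limma), or 4.79-fold lower. Gbp3 was the only member called under each of the 21 alternative settings, in which its log2 fold change ran from -2.85 to -1.80.

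Gbp6 had a pair of probes that differed in outcome. The larger difference came from the probe whose listed transcripts also include the paralog Gbp10, so the signals of those genes cannot be told apart there. It read 8.44, 8.92 and 10.62 on the mock arrays and 6.97, 7.64 and 7.34 on the SOD3 arrays. No SOD3 array was well above background, which makes the difference a bound: the combined signal of Gbp6 and Gbp10 was at least 3.03-fold lower (log2 fold change -2.01 ± 0.461, adjusted p = 0.0391, limma). The call was lost without mock replicate 2 and without each SOD3 array in turn, with adjusted p up to 0.145.

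The other Gbp6 probe, which does not list Gbp10, read 8.79, 8.21 and 8.96 in mock cells and 7.57, 7.87 and 7.86 in SOD3 cells. The arrays did not overlap, but the log2 fold change of -0.89 was not called (adjusted p = 0.0987, limma). A probe for Gbp10 that also lists Gbp6 gave a log2 fold change of -0.64 (adjusted p = 0.426), with overlapping arrays.

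Gbp7 was measured at 8.64, 8.71 and 9.20 in mock cells and at 7.43, 8.03 and 7.72 in SOD3 cells. No SOD3 array was well above background, so the mean of the gene was at least 2.01-fold lower (log2 fold change -1.12 ± 0.255, interval -1.68 to -0.56, adjusted p = 0.038, limma). This call was the least firm of the 5. It was lost without mock replicate 2 or 3 and without each SOD3 array, with adjusted p up to 0.167, and the log2 fold change was -0.35 after the position adjustment. Gbp4 had its only probe in the middle, where it was not well above background on any array, so no fold change is given for it.

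Of the regulatory IRG genes, Irgm2 was called lower. Its product is a membrane-bound GTPase that restrains the effectors. Irgm2 read 11.68, 11.35 and 11.91 in mock cells and 9.72, 10.60 and 9.48 in SOD3 cells, without overlap. The log2 fold change was -1.71 ± 0.305 (adjusted p = 0.0119, limma), or 3.27-fold lower. Without SOD3 replicate 1 the adjusted p was 0.0555, and without SOD3 replicate 3 it was 0.0612.

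Igtp, which lies near Irgm2 on chromosome 11 and also encodes a regulatory GTPase, was printed 10 times on each array, always outside the middle. The mean over its copies was 12.08, 11.49 and 12.15 on the mock arrays and 11.03, 10.71 and 9.19 on the SOD3 arrays. All SOD3 arrays read below all mock arrays, but they spread widely (SD 0.987 against 0.363), and the log2 fold change of -1.60 ± 0.417 was not called (adjusted p = 0.0693, limma). The 95% interval ran from -2.51 to -0.68. Without SOD3 replicate 1 the probe was called, with a log2 fold change of -1.93 and an adjusted p of 0.049.

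The copies of Igtp show how place bears on one and the same probe. The difference between the cell lines had a median of -1.74 over the 10 copies and ranged from -1.80 to -0.62. These copy values include readings flagged as outliers, which the Igtp averages above leave out. The copy at -0.62 sat at row 120 and column 90, 9 rows from the middle, where mock replicate 3 read 10.49 against up to 12.58 at its other copies. Both of these readings were among those flagged, and the row 120 copy had 2 flagged readings. A second copy at row 51 and column 65 gave -1.31. The remaining copies thus lay close together, and the weakest differences were at the columns of the middle.

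**Figure D2:**
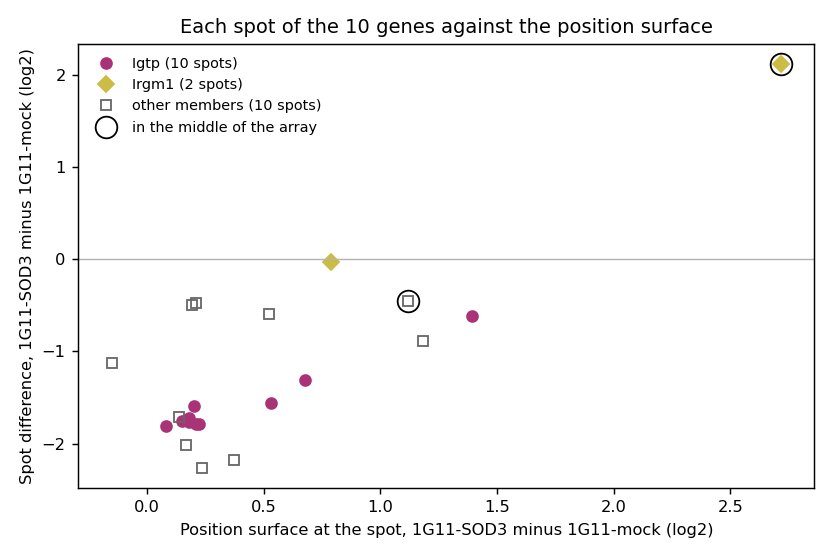
Difference between the mean of the 1G11-SOD3 and the 1G11-mock arrays (log2, vertical axis) for each of the 22 member spots. The horizontal axis gives the same difference (log2) in a smooth surface fitted to nearby bright spots of probes with fewer than 10 copies. Bright member spots, those of Igtp aside, entered the surface themselves. Readings flagged as outliers are included. The Igtp copies go from -1.80 to -0.62 as the surface rises, and the Irgm1 spot in the middle has the highest surface of all 22 spots, at 2.72.

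Irgm1, the regulator required for control of several intracellular bacteria, gave different readings from a pair of probes. The probe outside the middle read 9.70, 9.80 and 9.43 in mock cells and 9.94, 9.34 and 9.56 in SOD3 cells. The arrays overlapped and the log2 fold change was -0.03 (95% interval -0.56 to 0.50; adjusted p = 0.972, limma), so no difference was called. The interval is not a limit of detection, and larger changes can also go uncalled with these arrays. The sign of the log2 fold change turned under several settings, to 0.059 with cyclic loess and to 0.14 with the middle left out. Other settings moved it down, to -0.21 and -0.22 with the position adjustments described further on and to -0.41 with the processed signal, without a call. The spot lay 11 columns from the middle. There the smooth surface described further on was 0.79 higher on the SOD3 than on the mock arrays (log2). How far place masks a difference there was not tested.

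The second Irgm1 probe lay in the middle, at row 167 and column 69. It read 10.82, 9.10 and 8.73 on the mock arrays and 11.95, 11.38 and 11.68 on the SOD3 arrays, a log2 fold change of 2.12 that was called higher (adjusted p = 0.0269, limma). In the middle 11.9% of all probes were called higher and 0.0622% lower. After the position adjustment the log2 fold change was 0.02 (adjusted p = 0.966). The call was also lost without mock replicate 2 or 3 and without SOD3 replicate 1 or 3, with log2 fold changes of 1.92, 1.72, 1.96 and 2.10.

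Of the effector IRG genes, no probe designed on Iigp1 or Tgtp1 was called, whereas a probe designed on Tgtp2 that also lists Tgtp1 was called lower. One Iigp1 probe was well above background on 1 mock array and gave a log2 fold change of -0.49 (adjusted p = 0.527, limma). The other Iigp1 probe read 8.79, 8.26 and 8.58 in mock cells and 8.06, 7.97 and 7.82 in SOD3 cells, a difference of -0.59 that was not called (adjusted p = 0.252). That probe was well above background on 2 arrays of each line. A further spot, whose description names Iigp1 only by protein similarity, was not well above background on any array.

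The Tgtp1 probe lists both Tgtp1 and its near-identical neighbour Tgtp2 and was not well above background on any array. A brighter probe designed on Tgtp2 also lists Tgtp1, so it reports the pair together. It read 11.49, 11.11 and 11.86 in mock cells and 10.33, 10.36 and 9.06 in SOD3 cells. The log2 fold change of -1.57 was called lower (adjusted p = 0.0359, limma), and after the position adjustment it was -1.19 (adjusted p = 0.0892).

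The order of the arrays was similar for most member probes outside the middle, but not for Irgm1. 1G11-SOD3 replicate 3 was the lowest of the 6 arrays for 7 of the 11 probes outside the middle, and 1G11-mock replicate 3 was the highest for 8 of them. That mock array also had the largest dimming of the middle, and its part in the order was not tested. The shares of all probes with those arrays lowest or highest were not counted, so the order may not be particular to these genes.

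To set these values beside the position on the array, a smooth surface over rows and columns, taken from bright probes with fewer than 10 copies, was removed from each array. Copies of 1 probe then differed less from each other: the SD of their differences between the lines was 0.701 before and 0.172 after, on the log2 scale. With this position adjustment 4 member probes were called lower, those of Gbp2 (log2 fold change -1.99, adjusted p = 0.0471), Gbp3 (-1.95, adjusted p = 0.0232) and both Gbp6 probes (-1.39 and -1.71, adjusted p = 0.0366 and 0.0425), and 0 higher, whereas 0.586% of all probes outside the middle were called lower and 0.765% higher (limma). Irgm2 gave -1.30 (adjusted p = 0.0751) and Igtp -1.40 (adjusted p = 0.105).

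The same adjustment called 8.84% of all probes in the middle lower and 0.886% higher, many of them dim. A second form, which scales only the intensity above the negative control spots, was chosen after that result had been seen. It called 1.18% of the probes in the middle lower and 0.73% higher, and brought the SD among copies to 0.17. Under it the Gbp3 probe alone was called lower among the members (log2 fold change -1.99, adjusted p = 0.0297), against 0.485% of all probes outside the middle (limma). Gbp2 gave -2.02 (adjusted p = 0.0594), the Gbp6 probe shared with Gbp10 -1.82 (adjusted p = 0.0533), the other Gbp6 probe -1.28 (adjusted p = 0.0677) and Irgm2 -1.32 (adjusted p = 0.0913).

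**Figure D3:**
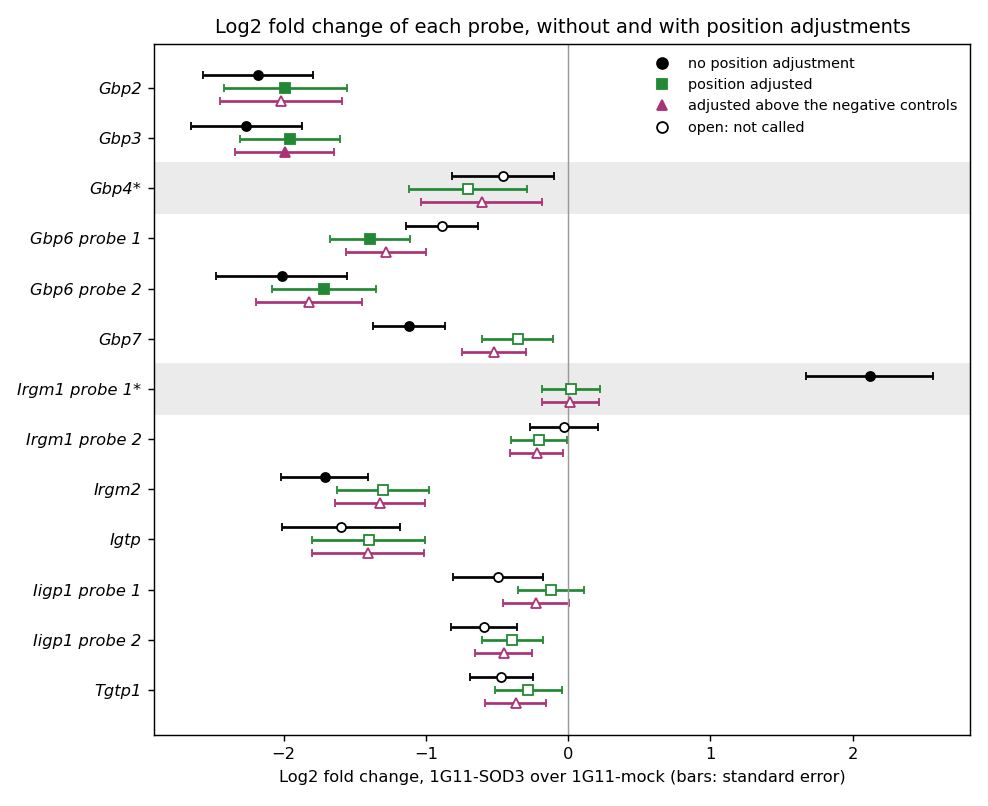
Log2 fold change of 1G11-SOD3 over 1G11-mock (horizontal axis, bars are standard errors) for the 13 member probes (vertical axis), without position adjustment (black), with it (green) and with the form that scales intensity above the negative controls (purple). Filled symbols were called. Gbp3 is filled in all 3 fits, and the Irgm1 probe in the middle goes from 2.12 to 0.02 and 0.02.

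Other genes of the pathway were read by their brightest probe outside the middle, where 1.93% of all genes were called lower and 1.19% higher. Of 18 other interferon-induced GTPases, 5 fell and 0 rose, with a median log2 fold change of -0.73 against -0.06 for all genes. They were the antiviral dynamin-like GTPases Mx2 (-2.43, adjusted p = 0.0014) and Mx1 (at least 2.52-fold lower, adjusted p = 0.00336), the very large inducible GTPase Gvin1 (-2.37, adjusted p = 0.001), Gm4951 (at least 1.70-fold lower, adjusted p = 0.0248) and Tgtp2, given above. After the position adjustment 4 of these genes were called lower, and under the second form 3 (Mx2, Mx1 and Gvin1).

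Among 12 interferon ligands and receptors outside the middle, 0 were called, with a median log2 fold change of -0.13. Ifngr1, the ligand-binding chain of the interferon-γ receptor, read 12.94, 12.77 and 13.07 in mock cells and 12.77, 12.33 and 12.11 in SOD3 cells (log2 fold change -0.52, adjusted p = 0.356, limma). Ifngr2, the other chain, had a probe in the middle alone, at 0.63 (adjusted p = 0.666). Ifngr1 was thus measured outside the middle without a called difference. The Ifngr2 value cannot be separated from the dimming of the middle on the mock arrays.

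Of 16 kinases, transcription factors and inhibitors of interferon signaling, 3 fell and 0 rose (median -0.22). Usp18, a protease that restrains type I interferon signaling, gave -2.59 on the log2 scale (adjusted p = 0.00935), the transcription factor Irf7 gave -1.53 (adjusted p = 0.0315) and the JAK-family kinase Tyk2 -1.18 (adjusted p = 0.0438, limma). Irf1, a transcription factor of the interferon-γ response, had an adjusted p of 0.0432 but a log2 fold change of -0.94, under the 2-fold threshold. Its levels were 13.33, 13.36 and 13.69 in mock cells and 12.39, 12.60 and 12.55 in SOD3 cells. With either position adjustment 1 gene of this list, Irf7, was called lower and 1, the phosphatase gene Ptpn6, higher (1.06 and 1.03), which is named here after its values were seen.

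Of 27 other genes induced by interferon-γ, 4 fell and 0 rose (median -0.52). They were the surface protein gene Ly6e (-2.14, adjusted p = 0.0129), the chemokine gene Cxcl10 (-2.07, adjusted p = 0.0314), the adhesion molecule gene Icam1 (-1.99, adjusted p = 0.0315) and Nlrc5, an activator of MHC class I genes (at least 2.82-fold lower, adjusted p = 0.00874, limma). With either position adjustment Nlrc5 was the 1 gene of this list called. Cxcl10 and Icam1 are also known targets of NF-κB.

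Of 24 proteins that load or work with these GTPases, 3 fell and 0 rose (median -0.42). Casp4, the inflammatory caspase that senses bacterial lipopolysaccharide, read 12.24, 11.87 and 13.19 in mock cells and 10.73, 10.65 and 10.79 in SOD3 cells (log2 fold change -1.71, adjusted p = 0.014, limma). The autophagy genes Gabarapl2 and Map1lc3b, whose ubiquitin-like products guide these GTPases to membranes, had log2 fold changes of -1.61 (adjusted p = 0.0484) and -1.04 (adjusted p = 0.0375). After the position adjustment 1 gene of this list, Casp4, was called, and under the second form 0. With 1 array left out in turn, the genes called lower numbered 3 to 5 of the other GTPases, 1 to 2 of the signaling genes, 2 to 3 of the other targets and 0 to 2 of the partners. The partners had 0 without 1G11-SOD3 replicate 1 or 3.

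**Figure D4:**
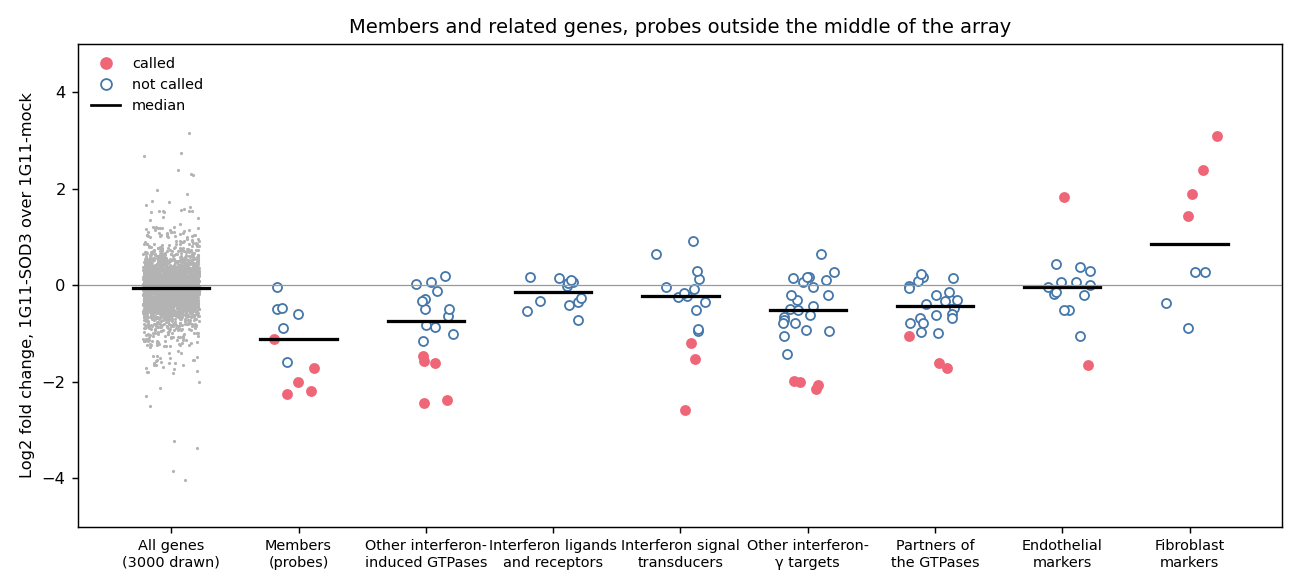
Log2 fold change of 1G11-SOD3 over 1G11-mock (vertical axis) for the member probes and for the genes of 7 lists by their brightest probe outside the middle, beside 3000 genes drawn at random from all. Filled red points were called, open blue points were not, and lines are medians. The 11 member probes outside the middle have a median of -1.12, and the 5 called among them lie below 0.

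Among the cell type markers, calls fell mainly on the fibroblast list. Of 15 endothelial markers outside the middle, Egfl7 rose (log2 fold change 1.82, adjusted p = 0.0172, limma) and Vwf fell (-1.65, adjusted p = 0.00327). Detection was counted over all 16 endothelial markers and all their probes, those in the middle included. By the best probe in each line, 5 were well above background on every array, while 8 were so on no array, among them Cdh5, Tek, Tie1 and Erg. With either position adjustment 0 endothelial markers were called. Kdr, a receptor of endothelial cells, was well above background on all 6 arrays by its brightest probe and on no array by another. Of 8 fibroblast markers 4 rose and 0 fell: Col1a1 (8.55-fold higher, adjusted p = 0.00148), Pdgfrb (log2 fold change 2.39, adjusted p = 0.000348), Col3a1 (1.43, adjusted p = 0.0231) and Lum (at least 2.47-fold higher, adjusted p = 0.03). Lum was not called with either position adjustment, and 2 fibroblast markers were called without mock replicate 1 or 2 or SOD3 replicate 3. The summed log2 level of the fibroblast list was 82.0 to 83.8 on the mock arrays and 88.4 to 95.4 on the SOD3 arrays. Its part in the GTPase differences was not tested, and in bulk RNA fewer cells of a type and less RNA per cell cannot be told apart. Of 10 leukocyte markers and 7 epithelial markers, 0 were called.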

How the data were processed

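RNA of 3 1G11-mock and 3 1G11-SOD3 cultures was hybridized to single-color Agilent mouse arrays. The authors deposited scanner output (Agilent Feature Extraction 10.7.3.1) with the mean and median intensity of each spot and its local background intensity, not normalized between arrays, and a table of deposited log2 values, background corrected by normexp and quantile normalized, which was used as an alternative. Here, mean intensities were corrected by normexp (offset of 50), taken to log2 and quantile normalized without control spots (limma 3.58.1, R 4.3.3). Spots flagged as outliers were left out. Copies of a probe were averaged separately inside and outside the middle, and the lines were compared by limma. Where no array of a line was well above background, a bound was given, with the lowest signal well above background of each array, or the probe's own if higher, as the dim level. Such bounds ("at least") concern the difference of the means and leave out the spread between arrays. Signal over background and 3 arrays per line limit the precision. Tables and figures used Python 3.11.15, pandas 2.3.3, numpy 2.4.6 and matplotlib 3.10.9. The members and gene lists were chosen with earlier results of these data known. All member probes are named, and of each list the called genes, at most 6 by size of change, plus Irf1, Ifngr1, Ifngr2, Tgtp2 and 1 gene not reported here. A few marker genes not called were named after their values were seen. Further settings covered background, normalization, filters, position, variance trend, replicate block, the deposited table and leaving out each array. The second position adjustment was added after the first had been run. The fit was tested on simulated data. The genome build of the array's probe positions is not given in the sources used here, so no probe position is printed.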

Additional observations from a re-analysis of the deposited data

How the results depend on the processing

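The direction of the Gbp2, Gbp3, Gbp6, Gbp7, Irgm2 and Igtp differences outside the middle was kept in all alternatives run, while the number of member probes called lower there, 5, was not stable. It was 3 with no background correction, 4 with the planned position adjustment and 1 with the position adjustment above the negative controls, which was chosen after seeing the data. It was 7 with the processed signal and 7 with scaling to the 75th percentile, and it ranged from 1 to 5 when 1 array was left out (1 without 1G11-SOD3 replicate 3). The count of member rows called in the middle, 1, became 0 with no background correction, 2 with the processed signal, 0 with either position adjustment, and ranged from 0 to 1 with 1 array left out. The Irgm1 probe outside the middle turned to 0.059 with cyclic loess, to 0.14 with the middle left out, and ranged from -0.19 to 0.10 with 1 array left out, including 0.000369 without 1G11-mock replicate 1, 0.049 without 1G11-mock replicate 2 and 0.10 without 1G11-SOD3 replicate 2. It was -0.21 and -0.22 with the position adjustments and -0.41 with the processed signal. The cause of these shifts was not tested. In the labels, replicates of the 2 lines share only a number. The deviations of same-numbered arrays correlated at 0.167, 0.225 and 0.0877, and those of all other pairs of a mock and a SOD3 array at -0.14 to -0.03. These sets of values are not independent, as deviations from the mean of a line cancel out within it. The main fit did not use the pairing by number. With the replicate block 6 member probes were called lower, Igtp included (adjusted p = 0.037, limma). Calls rose over all probes too, to 2296 with 798 lower, against 1692 with 597 lower in the main fit. Over all probes 1692 were called (64.7% higher), against 1093 with no background correction, 768 with the middle left out (53.6% higher), 620 with the position adjustment above the negative controls (49.0% higher), 1295 with the planned position adjustment (33.7% higher), 2687 with scaling to the 75th percentile, where the median of all probes was -0.33, 11244 with the processed signal (1235 higher and 10009 lower, median -0.52), and 801 to 1878 with 1 array left out. The Gbp4 probe and the Tgtp1 probe, well above background on no array, give no measured change.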
